A study of Mus musculus with 2 samples.

Results

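The genes described are 7 CXC chemokine genes of mouse lung: Cxcl1, Cxcl2, Cxcl5, Cxcl12, Cxcl15, Cxcl16 and Cxcl17. They were taken by symbol from the 28692 gene identifiers of the deposited matrices, and each matched 1 identifier in both libraries. Their level, the share of barcodes with a UMI (unique molecular identifier, counting 1 captured transcript) and the share of UMIs held by the top 5% of barcodes were measured in alveolar type 2 (AT2) cells and in AT1-like, club-like, ciliated-like and endothelial-like clusters. The study sequenced 2 droplet single-cell libraries, 1 per group. The tumor-bearing library came from a wild type C57BL/6 mouse whose lungs were taken at day 14 after 1000000 luciferase-labelled LLC cells (Lewis lung carcinoma, a transplantable mouse lung cancer line) had been placed under the skin of the back. The control library came from an untreated wild type C57BL/6 mouse. In both, cells negative for CD45, a leukocyte surface protein, and positive for SftpC, surfactant protein C of AT2 cells, were sorted from digested lung. With 1 library per group no test was possible and no difference below has a replicate check. A difference between the tumor-bearing and the control condition cannot be told apart from one between 2 mice, 2 sorts or 2 library preparations. Intervals are exact 95% intervals and cover counting error only. Those of levels and folds take each UMI as a separate draw. They are therefore too narrow for genes with many UMIs in few barcodes, such as Cxcl2.

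CXC chemokines are small secreted proteins that guide leukocytes through receptors on the leukocyte surface. Cxcl1, Cxcl2 and Cxcl5 act on the receptor Cxcr2 and draw neutrophils out of the blood, and Cxcl1 and Cxcl2 are induced rapidly by inflammatory signals acting through the transcription factor NF-kB. Cxcl15, known as lungkine, is a chemokine of mouse lung epithelium, Cxcl12 retains leukocytes and progenitors through Cxcr4, Cxcl16 is a membrane-bound chemokine for Cxcr6, and Cxcl17 is a chemokine-like protein of mucosal surfaces.

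Cxcl1, Cxcl2, Cxcl5 and Cxcl15 lie together on chromosome 5 (GENCODE vM21, build GRCm38). Cxcl5 occupies chr5:90759360-90761624, Cxcl15 chr5:90794534-90803067, Cxcl1 chr5:90891241-90893115 and Cxcl2 chr5:90903871-90905938, all on the plus strand. The start of Cxcl2 lies 10756 bases beyond the end of Cxcl1. Cxcl12 lies at chr6:117168535-117181367 on the plus strand, Cxcl17 at chr7:25400053-25412886 and Cxcl16 at chr11:70453983-70459984, both on the minus strand. RefSeq promoter windows, from 250 bases before to 50 after the gene start (build GRCm38.p6), were found for 4 of the 7 genes. The windows of Cxcl1 and Cxcl2 are shown because these neighbouring genes were both higher in tumor-bearing AT2 barcodes, and that of Cxcl15 because it was detected in nearly every AT2 barcode. Capitals mark matches to the NF-kB consensus in the first and second window and to TATAAA in the last.
Cxcl1 promoter window, chr5:90890995-90891294, plus strand: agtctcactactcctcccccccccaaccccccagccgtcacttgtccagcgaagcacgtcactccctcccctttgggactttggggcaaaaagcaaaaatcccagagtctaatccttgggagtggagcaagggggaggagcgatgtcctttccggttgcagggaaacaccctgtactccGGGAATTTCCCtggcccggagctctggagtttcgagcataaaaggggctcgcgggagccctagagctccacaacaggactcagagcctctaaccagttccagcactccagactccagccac
Cxcl2 promoter window, chr5:90903649-90903948, plus strand: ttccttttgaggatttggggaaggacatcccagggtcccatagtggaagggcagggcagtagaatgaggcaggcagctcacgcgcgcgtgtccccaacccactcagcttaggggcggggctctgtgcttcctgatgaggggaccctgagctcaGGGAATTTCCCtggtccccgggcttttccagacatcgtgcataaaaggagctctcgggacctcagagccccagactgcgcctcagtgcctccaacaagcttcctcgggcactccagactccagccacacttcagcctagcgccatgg
Cxcl15 promoter window, chr5:90794284-90794583, plus strand: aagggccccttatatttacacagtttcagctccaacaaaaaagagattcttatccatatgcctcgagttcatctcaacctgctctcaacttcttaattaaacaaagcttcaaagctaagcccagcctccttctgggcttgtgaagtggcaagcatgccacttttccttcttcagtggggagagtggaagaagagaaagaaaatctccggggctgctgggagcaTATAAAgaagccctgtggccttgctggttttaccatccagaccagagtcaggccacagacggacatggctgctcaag
The run in capitals was the same in the windows of Cxcl1 and Cxcl2. It holds an NF-kB match on each strand, and these overlap in all but their outer bases. The plus-strand match begins at position -71 from the RefSeq start of Cxcl1 and at -97 from that of Cxcl2. Over 32851 RefSeq promoter windows of the same length, 8.46% held the NF-kB consensus on either strand and 13.6% held TATAAA. The AP-1 element TGANTCA, found in 7.81% of windows, and the E-box CACGTG, found in 7.15%, were searched on both strands and matched none of the 4 chemokine windows. These matches describe letters in a window and were not read as binding sites.

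The tumor-bearing library held 84448360 UMIs and the control library 91498124. Barcodes with at least 2000 UMIs were kept, which left 8193 in the tumor-bearing library, against 11007 in the control library, and 128 barcode sequences occurred in both, against 122 for random draws from the barcode list. AT2 barcodes, those with Sftpc at 15% of UMIs or more, numbered 6729 (82.1%) in the tumor-bearing library, against 10008 (90.9%) in the control library. All 11 AT2 markers were detected in both. AT2 barcodes were deeper in the tumor-bearing library, with a median of 8976 UMIs against 6939 in the control library. For shares of barcodes, each barcode was therefore thinned at random to 2000 UMIs. Among the remaining barcodes, AT1-like clusters held 132 in the tumor-bearing library, against 283 in the control library, club-like 246 and 61, ciliated-like 230 and 309, and endothelial-like 562 and 78. These numbers are set by the sort and were not compared. The endothelial-like comparison rests on few control barcodes and on a median depth of 3120 UMIs in the tumor-bearing library, against 2840 in the control library.

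**Figure D1:**
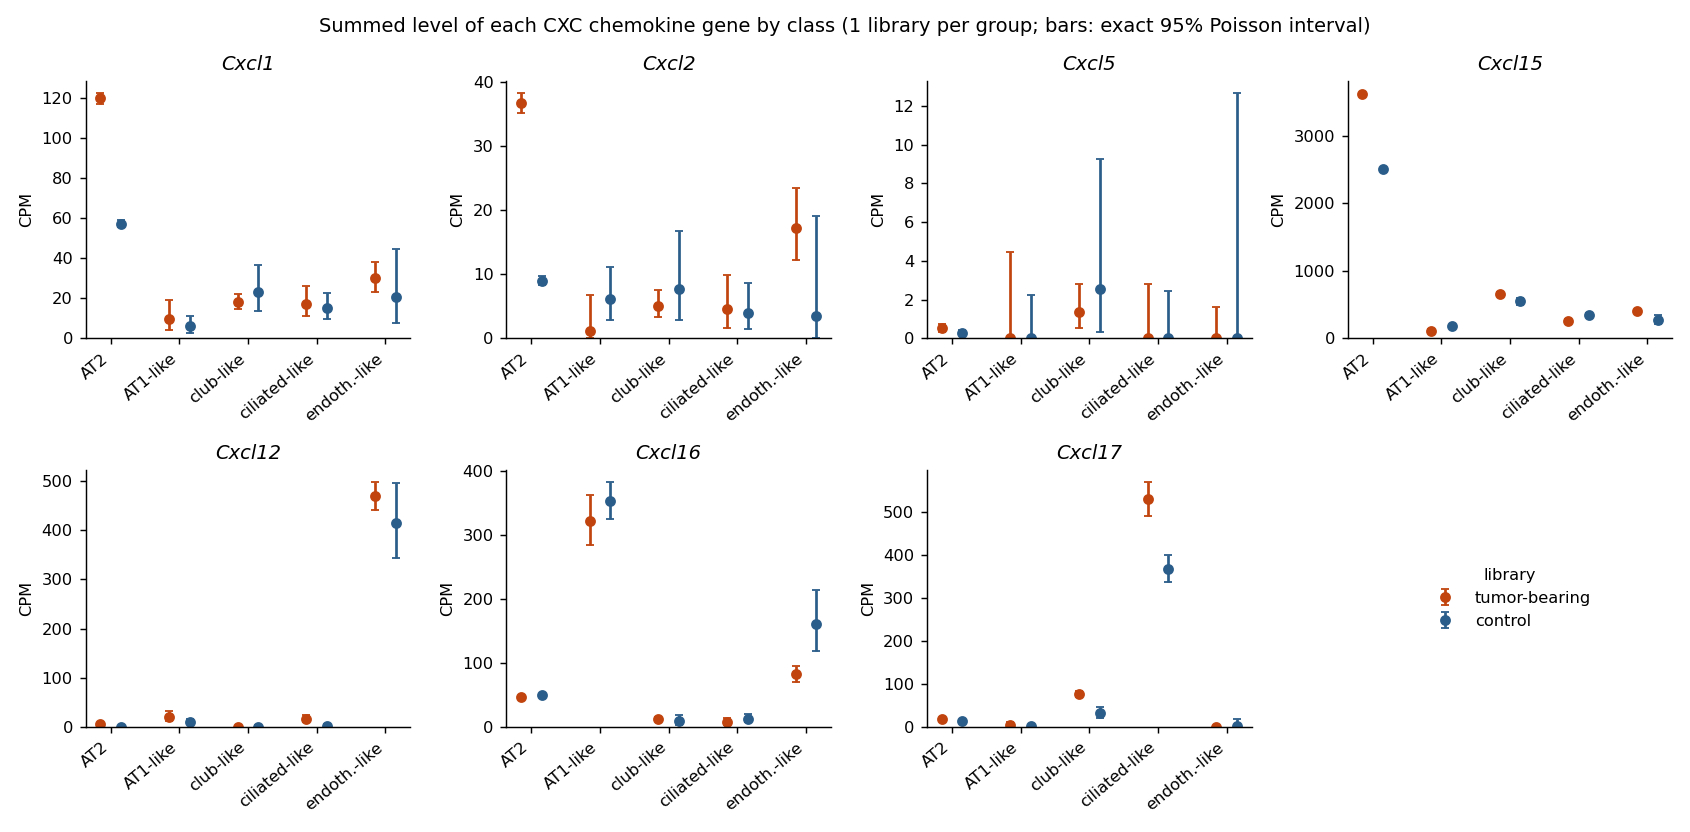
Level of each gene (y axis, CPM, UMIs of the gene per 1000000 UMIs) in each class (x axis), with 1 point per library, tumor-bearing left of control, and bars for the exact 95% Poisson interval. Cxcl1, Cxcl2 and Cxcl15 were highest in AT2 barcodes, Cxcl16 in AT1-like, Cxcl17 in ciliated-like and Cxcl12 in endothelial-like barcodes, in both libraries. For Cxcl2 this ordering holds in the tumor-bearing library, while in the control library its AT2 interval overlaps that of each other class.

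The neutrophil chemokine genes Cxcl1 and Cxcl2 were both higher in tumor-bearing AT2 barcodes, and in each library a small part of the barcodes held most of their UMIs. Cxcl1 stood at 119.8 CPM (117 to 123) in tumor-bearing and at 57.2 CPM (55.5 to 59.0) in control AT2 barcodes, a 2.09-fold difference (2.02 to 2.18). Cxcl2 stood at 36.7 CPM (35.2 to 38.2) in tumor-bearing and at 8.97 CPM (8.29 to 9.68) in control AT2 barcodes, a 4.09-fold difference (3.75 to 4.47). The intervals of the libraries did not overlap for either gene. At these UMI totals counting intervals are narrow even for small differences, such as 1.12-fold (1.11 to 1.14) for the gene Jund. The share of all genes with separate intervals was not counted. Cxcl5, another ligand of Cxcr2, was close to the detection limit, with 32 UMIs (0.509 CPM) in tumor-bearing and 19 UMIs (0.262 CPM) in control AT2 barcodes. Its 1.94-fold difference had a counting interval from 1.07 to 3.62.

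With no test, a difference was called by its size alone, where a gene reached 50 CPM in 1 or both libraries, differed at least 2-fold (an absolute log2 ratio of 1 or more) and had Poisson intervals that did not overlap. In AT2 barcodes 10 of 1785 genes passed it (0.56%), 7 of them higher in the tumor-bearing library (0.392%). Of the 7 chemokine genes, Cxcl1 and Cxcl15 reached the 50 CPM minimum, and Cxcl1 passed the rule, with rank 6 from the top among the 1785 ratios. Its log2 ratio of 1.05 lay just beyond the limit and was 0.95 with a pseudocount of 10 in place of 1 CPM, which ended the call. Cxcl2, with a log2 ratio of 1.92, was below the 50 CPM minimum and passed with a minimum of 20 CPM, under which 32 of 4036 genes passed (0.793%).

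**Figure D2:**
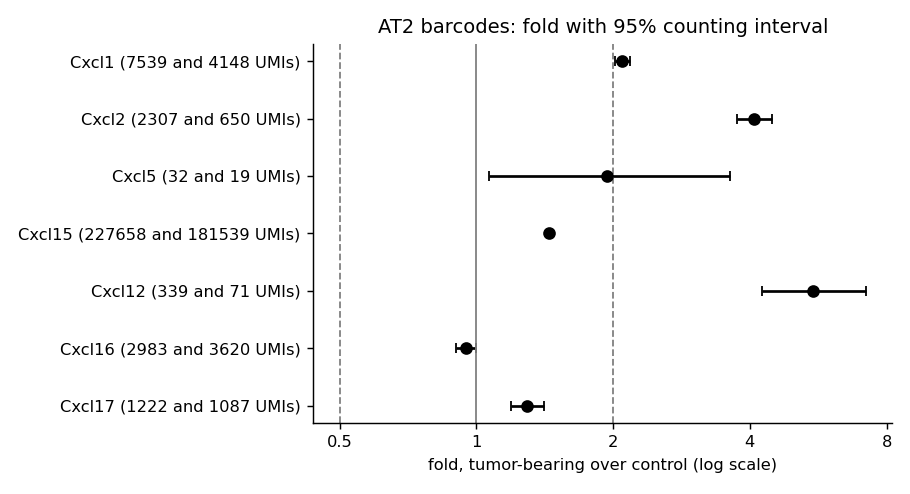
Fold of each gene in AT2 barcodes, tumor-bearing over control (x axis, log scale), with the exact 95% counting interval; the UMIs in brackets are those of the tumor-bearing and then the control library, and dashed lines mark a 2-fold difference. Cxcl2 (4.09) and Cxcl12 (5.50) lie beyond the upper dashed line with their whole intervals, Cxcl1 (2.09) just beyond it, and Cxcl16 (0.949) lies below 1.

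After thinning, a Cxcl1 UMI was found in 12.3% (11.5 to 13.1) of tumor-bearing and 7.08% (6.59 to 7.60) of control AT2 barcodes. Unthinned, the shares were 25.5% in the tumor-bearing library, against 15.2% in the control library. In ciliated-like barcodes the thinned shares were 2.17% in the tumor-bearing library, against 1.94% in the control library, at median depths of 5182 and 4441 UMIs. The Cxcl1 shares in AT2 barcodes lay above this level in both libraries. In endothelial-like barcodes the thinned shares were 2.49% (1.37 to 4.14) in the tumor-bearing library, against 5.13% (1.41 to 12.6) in the control library, and the interval of the control value includes the control AT2 share. So does that of control club-like barcodes, at 1.64% (0.0415 to 8.80). A Cxcl2 UMI was found in 3.31% (2.90 to 3.77) of tumor-bearing and 1.12% (0.922 to 1.34) of control AT2 barcodes after thinning, and in 7.33% and 2.81% without it. In ciliated-like barcodes the thinned Cxcl2 shares were 0.435% in the tumor-bearing library, against 0.647% in the control library, and the interval of the control value, 0.0785 to 2.32%, includes the control AT2 share. The control Cxcl2 share in AT2 barcodes was therefore not separable from that background at this depth. In the tumor-bearing library the intervals of club-like barcodes, 1.63% (0.445 to 4.11), and AT1-like barcodes, 0.758% (0.0192 to 4.15), also include the AT2 share of 3.31%. Those of tumor-bearing ciliated-like and endothelial-like barcodes end below it, at 2.40% and 2.31%.

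Barcodes with a Cxcl1 UMI also held more of them in the tumor-bearing library. Among AT2 barcodes with Cxcl1, the mean was 1.81 UMIs of 2000 in the tumor-bearing library, against 1.52 in the control library. For Cxcl2 the mean was 1.92 UMIs in the tumor-bearing library, against 1.46 in the control library. At least 5 of 2000 UMIs were Cxcl1 in 48 of 6729 tumor-bearing and 20 of 10008 control AT2 barcodes. At least 5 UMIs of Cxcl2 were held by 15 tumor-bearing and 2 control AT2 barcodes.

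**Figure D3:**
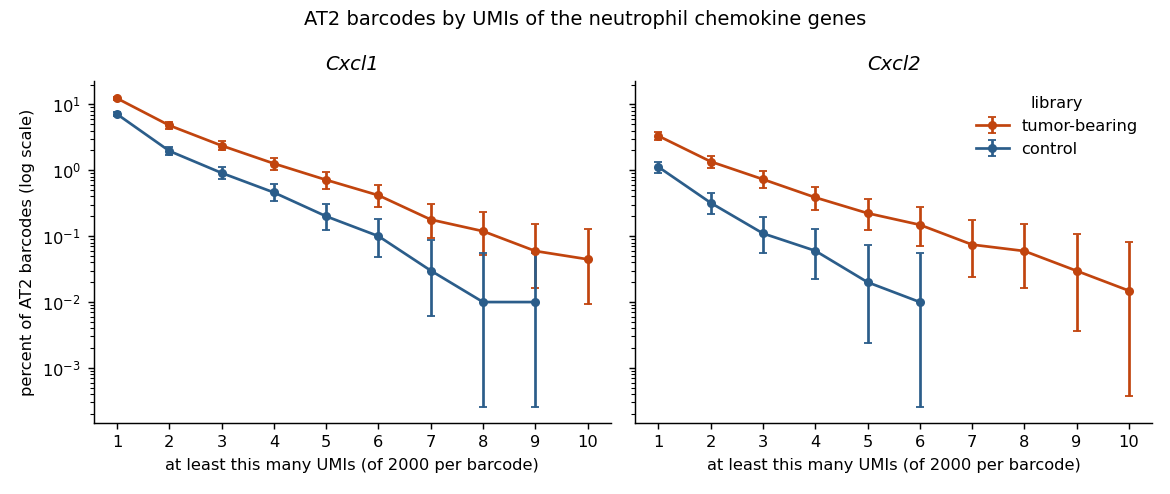
Percent of AT2 barcodes (y axis, log scale) with at least the given number of UMIs of Cxcl1 or Cxcl2 among 2000 (x axis), with exact 95% binomial intervals. The tumor-bearing curve lies above the control curve at every number shown, from 12.3% against 7.08% for 1 or more Cxcl1 UMIs, and the control curve of Cxcl2 ends at 6 UMIs.

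The top 5% of AT2 barcodes held 59.7% of Cxcl1 UMIs in the tumor-bearing library, against 71.0% in the control library. UMIs spread as evenly as their number allows would put 8.94% there in the tumor-bearing library, against 12.1% in the control library. Cxcl1 UMIs outside the top 5%, ranked without thinning, were divided by the UMIs of all AT2 barcodes. They made up 48.3 CPM in the tumor-bearing library, against 16.6 CPM in the control library. This remainder depends on how many barcodes had any Cxcl1 UMI, since the top 5% were picked by their own Cxcl1 counts. The top 20% held 95.1% of Cxcl1 UMIs in the tumor-bearing library and all of them in the control library. The remainder therefore does not show a higher level across all other barcodes. For Cxcl2 the top 5% held 93.2% of UMIs in the tumor-bearing library and all UMIs in control AT2 barcodes, of which 2.81% had any. The top 1% alone held 54.4% of Cxcl2 UMIs in the tumor-bearing library, against 68.0% in the control library. The fullest barcode held 69 Cxcl2 UMIs in the tumor-bearing library, against 19 in the control library, and for Cxcl1 43 and 40.

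AT2 barcodes with Cxcl2 had a Cxcl1 UMI more often than those without, in each library; this is a description and was not tested. In the tumor-bearing library Cxcl1 was found in 46.6% of 223 barcodes with a Cxcl2 UMI and in 11.1% of 6506 without. In the control library it was found in 33.9% of 112 barcodes with Cxcl2 and in 6.78% of 9896 without. Cxcl1 showed no such difference with Cxcl15 in the tumor-bearing library, where it was found in 12.3% of barcodes with Cxcl15 and 12.9% of those without. With Cxcl16, the share with Cxcl1 was 12.5% with and 12.3% without it in the tumor-bearing library, against 10.7% with and 6.71% without it in the control library.

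Several other measures moved with Cxcl1 and Cxcl2. Nfkbia, an NF-kB target that encodes its inhibitor, stood at 457 CPM in tumor-bearing and 309 CPM in control AT2 barcodes, and 15 of 17 measured immediate early genes had ratios above 0. Summed neutrophil markers were at 37.0 CPM in tumor-bearing and 0.883 CPM in control AT2 barcodes, with 9 of 9 markers at some UMIs in the tumor-bearing library, against S100a8, S100a9 and Camp at 0 in the control library. The 6 general leukocyte markers, Ptprc among them, summed to 4.07 CPM in tumor-bearing and 1.35 CPM in control AT2 barcodes. In the tumor-bearing library, 493 AT2 barcodes had a Cxcl2 UMI before thinning and 6236 had none. The first group held 0.0791 neutrophil marker UMIs on average and the second 0.0821. Macrophage markers averaged 0.101 UMIs with Cxcl2 and 0.0444 without it, and general leukocyte markers 0.0325 and 0.00625. The shares with 3 or more leukocyte marker UMIs were 0.406% of the 493 and 0.016% of the 6236 barcodes. Each of these shares rests on very few barcodes. In the control library macrophage markers averaged 0.0320 UMIs with Cxcl2 and 0.0405 without it, and leukocyte markers 0.00356 and 0.00370. Empty droplets, barcodes with 1 to 100 UMIs, had Cxcl2 at 48.5 CPM in the tumor-bearing library, against 10.3 CPM in the control library, and Cxcl1 at 144 and 87.0 CPM. Summed neutrophil markers stood at 1004 CPM in tumor-bearing and 3.02 CPM in control empty droplets, and general leukocyte markers at 31.9 and 5.17 CPM. The highest share of free RNA that hemoglobin or club cell transcripts allow was 3.72% in tumor-bearing and 6.10% in control AT2 barcodes. At that share, free RNA would give AT2 barcodes 1.81 CPM of Cxcl2 in the tumor-bearing library, against 0.631 CPM in the control library. For Cxcl1 it would give 5.36 and 5.31 CPM. No such estimate was made for the marker sums. The part of the immediate early genes and of the neutrophil, macrophage and other leukocyte transcripts in these differences was not tested.

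In the other named classes Cxcl1 was lower than in AT2 barcodes of the same library and did not differ between the libraries beyond counting error. It ranged from 9.63 CPM in AT1-like to 29.95 CPM in endothelial-like barcodes of the tumor-bearing library, and from 6.07 CPM in AT1-like to 23.0 CPM in club-like barcodes of the control library. The folds ran from 0.791 (0.474 to 1.39) in club-like to 1.59 (0.544 to 4.46) in AT1-like barcodes, and each interval included 1. Among endothelial-like clusters it reached 72.0 CPM (52.7 to 96.1) in tumor-bearing and 30.7 CPM (8.37 to 78.7) in control barcodes of the Cldn5-led cluster. Several clusters outside these classes also stood near or above the control AT2 level. The Gsta1-led cluster had Cxcl1 at 92.4 CPM (78.2 to 108.5) in the tumor-bearing library, against 118 CPM (98.4 to 139.8) in the control library. Smaller clusters rested on few UMIs, with 20 tumor-bearing and 9 control UMIs in the muscle-like and pericyte-like cluster (89.7 and 168 CPM), 8 and 0 in the fibroblast-like cluster, all 8 in 1 barcode, and 5 and 18 in the basal-like cluster (35.8 and 68.9 CPM). The free RNA that would carry the Sftpc UMIs of these classes accounts for 7.48 to 22.2 CPM of Cxcl1 in the tumor-bearing library, against 7.45 to 14.0 CPM in the control library. Cxcl2 was between 1.20 and 17.2 CPM in these classes of the tumor-bearing library and between 3.43 and 7.67 CPM in those of the control library. Cxcl5 had 7 UMIs in tumor-bearing and 2 in control club-like barcodes, 6 of the 7 in 1 barcode, and 0 UMIs in AT1-like, ciliated-like and endothelial-like barcodes of both libraries. Read as allowing up to 3 barcodes, a count of 0 allows a share of up to 2.27% of tumor-bearing and 1.06% of control AT1-like barcodes with a Cxcl5 UMI, and the exact upper limits are 2.76% and 1.30%.

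The highest mean level of Cxcl2 in a cluster lay outside the named epithelial and endothelial classes, although the single fullest barcode was an AT2 one. In a cluster led by Bpifa1, a secreted airway protein gene, with S100a8, S100a9 and hemoglobin genes among its leading genes, Cxcl2 stood at 342 CPM (296 to 394) over 41 tumor-bearing barcodes. The 12 control barcodes of that cluster had 0 UMIs, for which the Poisson interval reaches 33.4 CPM. At a clustering resolution of 1.0 the cluster came apart, and its S100a8-led part, with 17 tumor-bearing barcodes, held 194 of the Cxcl2 UMIs, or 1637 CPM (1415 to 1884). S100a8 and S100a9 are abundant in neutrophils. Of these 17 barcodes 8 had a Cxcl2 UMI, and 54 was the highest count. The 6 control barcodes of that part had 0 Cxcl2 UMIs, with an interval up to 104 CPM. Cxcl1 in the same barcodes was 59.1 CPM (7 UMIs) in the tumor-bearing library, against 0 UMIs in the control library.

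Cxcl15 was the chemokine gene found in nearly every AT2 barcode, and it was moderately higher in the tumor-bearing library. It stood at 3618 CPM (3603 to 3633) in tumor-bearing and 2504 CPM (2492 to 2515) in control AT2 barcodes, a 1.44-fold difference (1.44 to 1.45) with separate intervals. The log2 ratio of 0.53 lay under the size rule and above the range that held the middle 95% of the 1785 genes, which ran from -0.34 to 0.40 around a median of -0.05. After thinning, a Cxcl15 UMI was found in 98.7% of tumor-bearing and 96.9% of control AT2 barcodes. The median barcode held 6 of 2000 UMIs in the tumor-bearing library, against 4 in the control library, the 5th percentile 2 and 1, and the 95th percentile 15 and 11. The whole distribution therefore stood higher in the tumor-bearing library. The top 5% of barcodes held 14.1% of Cxcl15 UMIs in each library, the most even spread among the 7 genes.

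**Figure D4:**
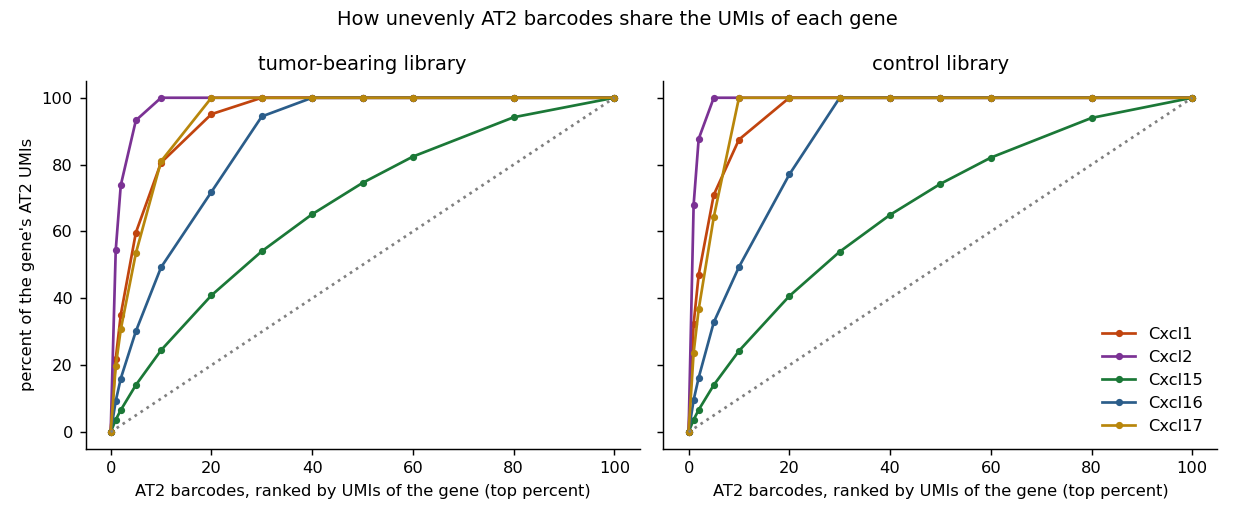
Cumulative percent of a gene's AT2 UMIs (y axis) held by AT2 barcodes ranked from the highest count down (x axis), for the tumor-bearing (left) and control (right) library; the dotted line is an equal share for each barcode. Cxcl15 lies nearest the dotted line, with 14.1% in the top 5% of each library, and Cxcl2 farthest from it, with 93.2% in the tumor-bearing library and all UMIs of the control library in the top 5%. The height of a curve also reflects how few UMIs a gene has.

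In the other classes Cxcl15 was far lower, and the libraries differed in both directions. In club-like barcodes it stood at 662 CPM (639 to 684) in the tumor-bearing library, against 549 CPM (498 to 603) in the control library, 1.21-fold (1.09 to 1.34). Free RNA would give less at the Sftpc level of these barcodes, 229 CPM in the tumor-bearing library, against 224 CPM in the control library. In AT1-like barcodes it stood at 113 CPM in the tumor-bearing library, against 181 CPM in the control library, and in ciliated-like barcodes at 257 and 346 CPM. The same free RNA estimate was 149 and 199 CPM in AT1-like and 257 and 337 CPM in ciliated-like barcodes, so Cxcl15 in these classes was not above background. In endothelial-like barcodes it stood at 397 CPM in the tumor-bearing library, against 274 CPM in the control library, below the estimates of 442 and 375 CPM. Without the endothelial-like cluster that carries the platelet gene Ppbp, Cxcl15 stood at 167 CPM in the tumor-bearing library, against 248 CPM in the control library, which turned the direction.

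Cxcl16, which is made as a membrane protein and shed by metalloproteases, was highest in AT1-like barcodes in both libraries, where its intervals overlapped. It stood at 321 CPM (284 to 362) in tumor-bearing and 353 CPM (325 to 382) in control AT1-like barcodes, a fold of 0.911 with an interval from 0.785 to 1.06. The class joins 2 clusters in unlike shares. The Igfbp2-led one held 117 of 132 tumor-bearing and 168 of 283 control barcodes, with Cxcl16 at 327 CPM (288 to 370) and 401 CPM (365 to 439). The Cryab-led one held 15 tumor-bearing and 115 control barcodes, with Cxcl16 at 249 CPM (139.4 to 411) and 242 CPM (201 to 289). After thinning, a Cxcl16 UMI was found in 55.3% of tumor-bearing and 47.7% of control AT1-like barcodes, with overlapping intervals of 46.4 to 64.0% and 41.8 to 53.7%. In AT2 barcodes Cxcl16 stood at 47.4 CPM (45.7 to 49.1) in the tumor-bearing library, against 49.9 CPM (48.3 to 51.6) in the control library, a fold of 0.949 (0.904 to 0.997). Among the 7 genes it alone had an AT2 ratio below 1, in the main values and in all 13 alternatives. With a log2 ratio of -0.07 it lay near the median of -0.04 over the 4036 genes at 20 CPM or more. It was found in 8.68% of tumor-bearing and 9.56% of control AT2 barcodes after thinning. At most 9 UMIs were held by any AT2 barcode in the tumor-bearing library, against 8 in the control library, so its AT2 level came from many barcodes with few UMIs.

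In endothelial-like barcodes Cxcl16 was lower in the tumor-bearing library, by slightly less than the size rule asks. It stood at 82.4 CPM (71.0 to 95.1) in the tumor-bearing library, against 161 CPM (118 to 214) in the control library, a fold of 0.511 (0.370 to 0.720) and a log2 ratio of -0.96. The make-up of the class differed, since the Cldn5-led cluster, which had more Cxcl16 than the Gpihbp1-led one, held 78 of 562 tumor-bearing and 22 of 78 control barcodes. Within clusters the intervals overlapped, at 47.7 CPM (35.7 to 62.6) in tumor-bearing and 74.6 CPM (32.2 to 146.9) in control barcodes of the Gpihbp1-led, 139.3 CPM (112 to 171) and 230.4 CPM (155 to 329) in the Cldn5-led, and 101.2 CPM (68.8 to 143.7) and 187 CPM (80.8 to 369) in the Car4-led cluster. Club-like barcodes had 12.1 CPM in the tumor-bearing library, against 8.95 CPM in the control library, and ciliated-like barcodes 7.55 and 13.2 CPM, without separate intervals. AT1-like and AT2 markers occurred together in an unnamed cluster of 24 tumor-bearing and 66 control barcodes led by Igfbp2. There Cxcl16 stood at 196 CPM (152 to 248) in the tumor-bearing library, against 198 CPM (169 to 230) in the control library, between the AT2 and AT1-like levels.

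Cxcl12 was highest in endothelial-like barcodes in both libraries, and over the whole class its intervals overlapped. It stood at 469 CPM (441 to 498) in tumor-bearing and 415 CPM (344 to 496) in control endothelial-like barcodes, a fold of 1.13 with an interval from 0.936 to 1.38. After thinning, 37.0% of tumor-bearing and 34.6% of control endothelial-like barcodes had a Cxcl12 UMI. The level differed widely between endothelial-like clusters. It reached 3158 CPM (2814 to 3533) in 33 tumor-bearing barcodes led by Plac8 and Lyve1, with 31 of 33 positive, and 2623 CPM (1355 to 4582) in the 2 control barcodes of that cluster. In the large cluster led by Gpihbp1, a protein of capillary endothelium, it stood at 609 CPM (563 to 657) in the tumor-bearing library, against 708 CPM (558 to 887) in the control library. In the Cldn5-led cluster, which carries platelet markers, it was lower in the tumor-bearing library with separate intervals, at 116 CPM (91.0 to 145.4) over 78 tumor-bearing barcodes, against 246 CPM (168 to 347) over 22 control barcodes. In the Car4-led cluster it stood at 58.8 CPM over 70 tumor-bearing barcodes and had 0 UMIs over 12 control barcodes. In the Ccl21a-led cluster it stood at 35.8 CPM over 39 tumor-bearing barcodes.

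**Figure D5:**
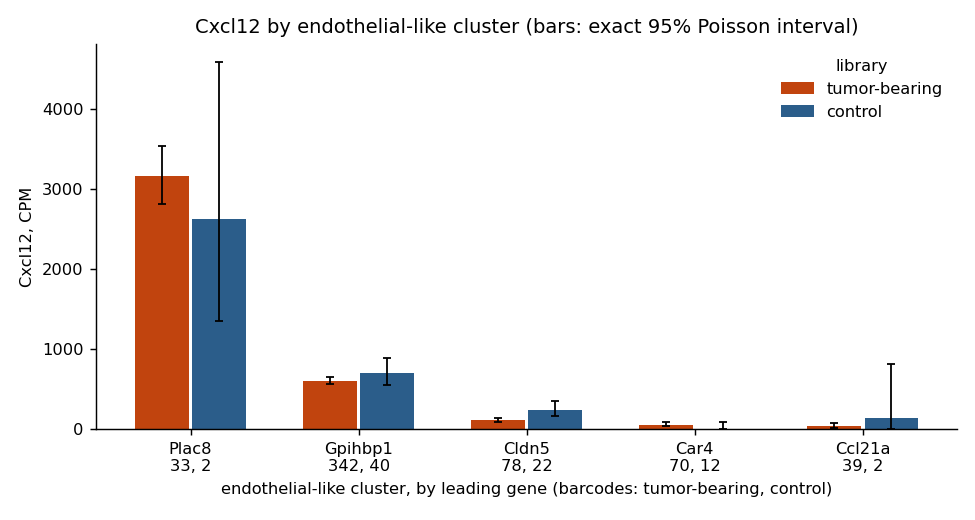
Cxcl12 level (y axis, CPM) in each endothelial-like cluster (x axis, named by its leading gene, with its barcodes in the tumor-bearing and then the control library), tumor-bearing bars left of control bars, and exact 95% Poisson intervals. The Plac8-led cluster, at 3158 CPM in the tumor-bearing library, stood above the other clusters of that library, and 2 control barcodes give the wide interval beside it.

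In AT2 barcodes Cxcl12 was rare and moved with endothelial markers. It had 339 UMIs (5.39 CPM) in the tumor-bearing library, against 71 UMIs (0.979 CPM) in the control library, a 5.50-fold difference (4.25 to 7.21). The 14 endothelial markers summed to 241 CPM in tumor-bearing and 55.0 CPM in control AT2 barcodes. Of the 154 tumor-bearing AT2 barcodes with a Cxcl12 UMI, 48.7% held 3 or more endothelial marker UMIs among 2000, against 2.25% of those without Cxcl12. Of the 39 control AT2 barcodes with Cxcl12, 30.8% did, against 0.351% of those without. With barcodes left out that held 3 or more marker UMIs of other cell types, a setting chosen after seeing the data, the fold was 3.38. With the highest doublet scores removed it was 2.66. The part of mixed droplets in what remained was not tested.

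Cxcl17 was a gene of airway-type barcodes and, among the 5 named classes, was highest in ciliated-like ones. It stood at 529 CPM (491 to 570) in tumor-bearing and 368 CPM (338 to 400) in control ciliated-like barcodes, a 1.44-fold difference (1.28 to 1.61) with separate intervals. After thinning, 55.2% (48.5 to 61.8) of tumor-bearing and 42.7% (37.1 to 48.4) of control ciliated-like barcodes had a Cxcl17 UMI. The larger ciliated-like cluster held 166 of 230 tumor-bearing and 156 of 309 control barcodes of the class. In both ciliated-like clusters the tumor-bearing library was higher. The larger held 608 CPM (557 to 662) in the tumor-bearing library, against 520 CPM (466 to 579) in the control library, with overlapping intervals. The smaller held 378 CPM (323 to 439) and 257 CPM (224 to 293), with separate ones. At a clustering resolution of 1.0 the intervals of the smaller cluster overlapped, at 389 CPM (332 to 454) in tumor-bearing and 317 CPM (275 to 365) in control barcodes. The log2 ratio of the class, 0.52, was 0.37 at that resolution and 0.18 with a gate on markers.

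In club-like barcodes Cxcl17 stood at 76.2 CPM (68.8 to 84.1) in the tumor-bearing library, against 32.0 CPM (20.7 to 47.2) in the control library, 2.38-fold (1.59 to 3.73). It passed the size rule there, as 9 of 1009 genes did (0.892%), 3 of them higher in the tumor-bearing library (0.297%). This call depended on which barcodes were counted as club-like. At a clustering resolution of 1.0 the level was 93.7 CPM in the tumor-bearing library, against 104 CPM in the control library, and with a gate on markers 139.9 and 174 CPM, so the direction turned. In the Bpifa1-led cluster Cxcl17 stood at 286 CPM (244 to 334) over 41 tumor-bearing and 598 CPM (463 to 761) over 12 control barcodes. In AT2 barcodes Cxcl17 stood at 19.4 CPM (18.3 to 20.5) in the tumor-bearing library, against 14.99 CPM (14.1 to 15.9) in the control library, 1.30-fold (1.19 to 1.41). The AT2 levels were below the 39.6 CPM of tumor-bearing and 18.5 CPM of control empty droplets.

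No chemokine gene passed the size rule in AT1-like barcodes, where 2.2% of all genes passed, in ciliated-like barcodes, where 2.1% passed, or in endothelial-like barcodes, where 4.44% passed. In each of these classes 2 or 3 of the 7 genes reached the 50 CPM minimum. Over the 7 genes the median log2 ratio in AT2 barcodes was 0.53, and 6 ratios lay above 0. Cxcl5 and Cxcl12 are among these 7 at levels under 10 CPM, where the pseudocount reduces the ratio.

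Nearly all receptors and other ligands were below 20 CPM in AT2 barcodes. Of 19 other CXC ligand and receptor genes listed, 18 were in the files and Pf4 alone reached 20 CPM in AT2 barcodes, at 23.3 CPM in the tumor-bearing library, against 21.1 CPM in the control library. Pf4 encodes a platelet chemokine, and platelet markers including Pf4 summed to 31.1 CPM in the tumor-bearing library, against 29.4 CPM in the control library. None of 13 CC and CX3C ligand genes reached 20 CPM there. In endothelial-like barcodes, to name examples chosen after their values were seen, the decoy receptor gene Ackr3, which binds Cxcl12, stood at 64.3 CPM (54.3 to 75.6) in the tumor-bearing library, against 37.7 CPM (18.8 to 67.5) in the control library. Cxcr4 stood at 33.2 CPM (24.1 to 44.6) in tumor-bearing and 26.3 CPM (18.8 to 35.9) in control ciliated-like barcodes. These intervals overlapped.

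Listed inducer and NF-kB genes at 20 CPM or more, with NF-kB targets such as Nfkbia among them, differed less than Cxcl1 and Cxcl2. Of 34 listed inducer and NF-kB genes 12 reached 20 CPM in AT2 barcodes, 8 with a log2 ratio above 0 and 4 below, and none passed the size rule. Their median log2 ratio was 0.03, against -0.04 over all 4036 genes at 20 CPM or more. The largest were Nfkbia at 1.48-fold, Nfkbiz, an NF-kB cofactor, at 58.5 CPM in the tumor-bearing library, against 42.0 CPM in the control library (1.39-fold), Nfkbib, another NF-kB inhibitor, at 21.4 and 27.4 CPM (0.781-fold), and the transcription factor gene Cebpb at 122 and 101.5 CPM (1.20-fold). Below 20 CPM, listed genes differed in both directions, for example Il6 at 16.6 CPM in tumor-bearing and 7.54 CPM in control AT2 barcodes. Its fold was 2.19 (1.98 to 2.44), and that of Csf1 was 0.636 (0.552 to 0.732). Il1a (4.77-fold) and Il1b (57.6-fold) stood below 1 CPM in both libraries. Of 5 listed processing enzymes only Dpp4, a peptidase that trims chemokines, reached 20 CPM. It stood at 46.5 CPM in the tumor-bearing library, against 44.4 CPM in the control library. Of 21 listed immediate early genes 17 were measured, with a median log2 ratio of 0.25, and none passed the rule. The largest were Klf2 at 48.4 CPM in the tumor-bearing library, against 24.2 CPM in the control library (2.00-fold), Jun at 897 and 615 CPM (1.46-fold), Klf6 at 129 and 91.1 CPM (1.41-fold) and Klf4 at 57.3 and 43.2 CPM (1.33-fold). Klf2 was also among the leading genes of the Plac8-led endothelial-like cluster at a clustering resolution of 1.0. In empty droplets it stood at 148 CPM in the tumor-bearing library, against 48.7 CPM in the control library. The part of endothelial transcripts in the AT2 difference of Klf2 was not tested. Immediate early genes also respond to tissue digestion.

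The likeness of other genes to each chemokine was described in 2 ways, with no test. Over the 10 profiles of 5 classes in 2 libraries, which share libraries and so are not independent, the genes most like Cxcl15 were Chia1 (Pearson r 0.98), Chil1 and Sftpb, the last encoding surfactant protein B. Those most like Cxcl16 were Tnfrsf12a (0.99), Cd81 and F2r, those most like Cxcl12 were Unc45b (1.00), Aard and Ushbp1, and those most like Cxcl17 were Cd55 (0.97), Hs3st6 and Lypd2. Those most like Cxcl1 were Rpl10a (0.93), Chia1 and Lcn2, an innate defence protein gene, those most like Cxcl2 were Gm9493 (0.85) and Ralgapa2, and those most like Cxcl5 were Cckar (0.92), Pon1 and Gsta3. Across thinned AT2 barcodes, r was at least 0.2 in both libraries for Nfkbia with Cxcl1, at 0.31 in the tumor-bearing library, against 0.23 in the control library, and for Lyz2, a lysozyme gene, with Cxcl15, at 0.27 and 0.22. No gene reached 0.2 in both libraries with any of the other 5 chemokine genes. These are weak correlations in sparse counts.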

How the data were processed

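Per the labels, CD45- SftpC+ lung cells of 1 tumor-bearing and 1 control mouse were profiled by droplet sequencing. The authors deposited unnormalised UMI counts for every gene in each of 737280 barcodes. Per the series design, reads were processed with Cell Ranger 2.1.0, and per the submitters' processing notes the genome was mm10, with Seurat and R 3.5.3 listed but given no role. Of the 28692 identifiers 28339 (98.77%) were in GENCODE vM21.

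Barcodes with at least 2000 UMIs were kept. Those with Sftpc at 15% of UMIs or more were called AT2, the rule that defines this class. The cut was not sharp: 88 tumor-bearing and 120 control barcodes had 12% to 15% Sftpc. The others were clustered jointly in scanpy 1.11.5 without the 7 genes (2000 variable genes, 30 principal components, 15 neighbours, Leiden resolution 0.5). A cluster took the name of the marker list whose detected members (20 CPM and 3 UMIs or more) had the highest mean log2 fold (pseudocount 10 CPM), and stayed unnamed with fewer than 3 of them, a mean below 0.5, more leading genes of another list, low depth or a median Sftpc share of 5% or more. This naming rule was set after seeing the data, and names may differ from those of the submitters. Scrublet called 0 doublets in both libraries and so did not work here. No doublets were removed, and in an alternative the 537 tumor-bearing and 969 control barcodes with the highest scores were.

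Summed counts of a class were divided by its total UMIs to give CPM. A log2 ratio, tumor-bearing over control, had 1 CPM added to each level, and folds had nothing added. Intervals are exact at 95%: Poisson for CPM, Clopper-Pearson for shares, conditional binomial for folds. A count of 0 allows 3 counts. Shares were computed after thinning to 2000 UMIs, which left out no barcode. UMIs from empty droplets (5359717 tumor-bearing and 2321211 control UMIs) gave the free RNA profile, which was scaled to Sftpc in classes other than AT2 and, in AT2 barcodes, to the marker of club, endothelial or red cells with the lowest ratio to the profile. Levels are not comparable between genes, since the assay captures each transcript with its own efficiency.

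All 7 genes are named. Listed ligands and receptors are named at 20 CPM or more in AT2 barcodes. Of the other lists up to 4 genes with the largest ratios at that level are named. Il6, Csf1, Il1a and Il1b are examples below it. The genes and lists were chosen with earlier results of these data known. The calculation was tested on simulated counts drawn independently, which do not hold the uneven spread of UMIs over barcodes. Of the genes most like Cxcl2 across class profiles, 1 is not reported here.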

Additional observations from a re-analysis of the deposited data

Results flagged for a closer look

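The direction of Cxcl15 differed between classes. Its log2 ratio, tumor-bearing over control, was 0.53 in AT2, 0.27 in club-like and 0.53 in endothelial-like barcodes, and -0.67 in AT1-like and -0.43 in ciliated-like barcodes. With 1 library per group this difference was not tested. In AT1-like, ciliated-like and endothelial-like barcodes Cxcl15 was near the level that free RNA would give. The ciliated-like value was -0.03 at a clustering resolution of 1.0 and turned to 0.35 with classes from a marker gate. The endothelial-like value turned to -0.49 with the marker gate and to -0.57 without the cluster with platelet markers. The AT1-like and club-like values kept their direction under the resolution and the gate.

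Some clusters outside the 5 classes held chemokine genes at higher levels in the tumor-bearing library, and others at lower ones. In the cluster led by Gsta1, with club and AT2 markers and a median Sftpc share of 11.4%, Cxcl15 stood at 1456 CPM in 126 tumor-bearing and 1200 CPM in 127 control barcodes, and Cxcl17 at 45.9 and 19.0 CPM. In the same cluster Cxcl16 was lower, at 90.6 CPM (76.5 to 106.5) in the tumor-bearing library, against 185 CPM (160 to 212) in the control library, and Cxcl1 stood at 92.4 and 118 CPM. In the Igfbp2-led cluster with AT1 and AT2 markers, Cxcl15 stood at 1489 CPM in 24 tumor-bearing and 1198 CPM in 66 control barcodes. In the Bpifa1-led cluster, Cxcl2 stood at 342 CPM in 41 tumor-bearing barcodes and had 0 UMIs in 12 control barcodes, and Cxcl15 stood at 545 CPM in the tumor-bearing library, against 245 CPM in the control library, while Cxcl17 was lower, at 286 CPM in tumor-bearing and 598 CPM in control barcodes. These levels have no replicate check, and the smallest clusters hold few control barcodes.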

How the results depend on the processing

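No paired analysis was possible because each group had 1 library. In AT2 barcodes the ratio of each of the 7 genes kept its direction under all 13 alternatives to the filters, the Sftpc minimum, doublet treatment, free RNA and scaling. The log2 ratio ran from 0.95 to 1.10 for Cxcl1, 1.30 to 2.00 for Cxcl2, 0.53 to 0.58 for Cxcl15, 0.49 to 2.00 for Cxcl12 and -0.15 to -0.03 for Cxcl16, and the lowest values of Cxcl1, Cxcl2 and Cxcl12 came with a pseudocount of 10 CPM. Of all genes 10 passed the size rule in AT2 barcodes. The count was 6 with a pseudocount of 10 CPM, 25 with CPM computed without the 20 most abundant genes, 32 with a minimum of 20 CPM and 179 with no minimum. Among the 7 genes, 1 passed in the main setting, and 0, 2, 2 and 3 passed under the same 4 settings. The last 3 settings test more genes by construction. In the other classes 25 ratios had 56 alternative values, of which 41 kept the direction. Cxcl17 in club-like barcodes, called at 1.23, turned to -0.15 at resolution 1.0 and to -0.31 with a marker gate, so that 0 of the other-class ratios passed there, against 1. At resolution 1.0 a Bpifa1-led cluster counted as club-like, with Cxcl17 at 357 CPM over 24 tumor-bearing and 880 CPM over 6 control barcodes. In the larger Scgb1a1-led club-like cluster Cxcl17 stayed higher in the tumor-bearing library, at 76.3 CPM, against 29.97 CPM in the control library. In the smaller Scgb1a1-led one it stood at 64.2 and 44.7 CPM, with overlapping intervals. The cause of the turn was not tested in either setting. The planned filter on markers of other cells, club and ciliated markers included, left 0 barcodes and gave no value. An added filter without these lists left 6236 tumor-bearing and 9783 control barcodes.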
